A study of Mus musculus with 7 samples.

Results

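Oxidative phosphorylation genes were followed in control mice and in mice given a low dose of penicillin. The tissue was the terminal ileum, where the small intestine meets the colon. The genes were chosen by symbol, as those whose names begin with Nduf and a letter from a, b, c, s or v, with Uqcr, with Cox and a digit from 4 to 8, or with Atp5, together with Sdha, Sdhb, Sdhc and Sdhd. By that rule 90 of the 18193 genes with a probe set of their own were members, and 88 of the 90 lay above the filter on weak signals and were tested. They were 36 genes of complex I, 4 of complex II, 8 of complex III, 17 of complex IV, 17 of complex V and 8 Ndufaf genes, which encode assembly factors of complex I. Cox7b2 and Ndufb4, with mean levels of log2 3.39 and 4.29, lay below the filter. Ndufb4 is also named together with another gene on a probe set that was left out, so its level is that of its own set alone. Ndufa11 and Ndufs6, whose probe sets also name another gene, are not analysed here.

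Total RNA was measured on Affymetrix arrays, 1 for each mouse, in male C57BL6J mice aged 8 weeks. The penicillin group was 4 mice that had received 6.7 mg/L penicillin from birth, and the control group was 3 mice without antibiotic. All 7 were weaned onto chow at 4 weeks and moved at 6 weeks to high-fat food, in which fat supplied 45% of the energy. The labels used here name no litter or cage, so their effect and that of penicillin cannot be told apart. The labels give the tissue as terminal ileum, although their growth text mentions livers.

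Oxidative phosphorylation is the last step of respiration in mitochondria. Complexes I and II pass electrons from NADH and succinate to ubiquinone, complex III passes them on to cytochrome c, and complex IV hands them to oxygen. Complexes I, III and IV pump protons across the inner membrane as they do so, and complex V, the ATP synthase, makes ATP as the protons flow back. Most of the subunits are encoded in the nucleus, and those are the genes measured here. Absorptive enterocytes of the gut depend on this ATP for the active uptake of nutrients.

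The promoters of these genes are shown first because nuclear respiratory factor 1, or NRF1, and GABPA are textbook activators of them. RefSeq promoter windows on GRCm38.p6 were at hand for 74 of the member genes, as 79 windows, and the 250 bases before the start were searched on both strands. The NRF1 sequence GCGCATGCG was in 6 member windows, 7.59% against 1.45% of all 32851 windows. The member stretches that hold it are given with up to 10 bases on each side, 5′ to 3′ on the strand of the gene. Capitals mark the match, and where matches on both strands overlap they mark the whole of both.
Atp5g2, chr15:102671070-102671099, minus strand: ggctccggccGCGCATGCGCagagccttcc
Atp5k, chr5:108434430-108434459, minus strand: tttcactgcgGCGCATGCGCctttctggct
Atp5l, chr9:44920965-44920992, minus strand: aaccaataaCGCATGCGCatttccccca
Cox6a1, chr5:115349101-115349130, minus strand: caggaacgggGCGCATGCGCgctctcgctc
Ndufa8, chr2:36049339-36049357, minus strand: tcgctggagaCGCATGCGC
Ndufaf4, chr4:24897960-24897989, plus strand: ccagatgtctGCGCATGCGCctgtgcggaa

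The capitals begin 42, 50, 241, 162, 9 and 113 bases before the start, in that order. The ETS core CCGGAAG, which GABPA binds, was in 14 member windows, 17.7% against 6.91% of all windows. Of the other sequences searched, the YY1 word AAGATGGC was in 1.27% of member windows against 1.56% of all, the nuclear receptor element AAGGTCA in 6.33% against 4.08%, the E box CAGCTG in 7.59% against 13%, and the TATA box TATAAA in 10.1% against 12.4%. A match is a description of the letters in the window, and binding was not measured.

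Cox6a1 and Cox8b of complex IV are printed over the whole searched window, because their signals moved least and most among the 7 mice of all the members. Capitals mark the NRF1 and ETS core matches of Cox6a1 and the E box of Cox8b.
Cox6a1, chr5:115348959-115349208, minus strand: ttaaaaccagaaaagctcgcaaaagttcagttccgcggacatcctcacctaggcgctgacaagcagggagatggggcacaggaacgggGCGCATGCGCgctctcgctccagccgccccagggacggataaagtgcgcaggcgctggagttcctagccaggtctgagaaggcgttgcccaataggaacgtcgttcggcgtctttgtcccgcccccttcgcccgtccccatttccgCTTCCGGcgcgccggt
Cox8b, chr7:140900447-140900696, minus strand: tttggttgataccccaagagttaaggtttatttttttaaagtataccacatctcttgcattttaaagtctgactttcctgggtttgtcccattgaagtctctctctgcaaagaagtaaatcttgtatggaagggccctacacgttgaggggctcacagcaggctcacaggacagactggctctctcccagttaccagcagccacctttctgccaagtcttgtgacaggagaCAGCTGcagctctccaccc

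No oxidative phosphorylation gene passed the test between penicillin and control mice. The test was limma's, adjusted over 13644 genes by the Benjamini-Hochberg method, and a gene passed at an adjusted p under 0.05. It passed 0 of 88 members, against a background of 0.0953% of all genes tested (0.088% lower and 0.00733% higher). At an unadjusted p under 0.05 there were 1 lower member, Ndufaf3, and 1 higher member, Cox6a2, against backgrounds of 6.35% and 4.37%. The smallest adjusted p of a member was 0.357, for Cox6a2. All differences below are penicillin minus control on the log2 scale, each with its standard error (SE), and levels are log2 signals that are not comparable between genes.

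The differences were small, and for most members the interval was narrow. The difference was under 0.1 in size in 68 of the 88 tested members, 77.3%, against 58.4% of all genes tested. The 95% confidence interval lay inside a 1.2-fold change in either direction in 75 of the 88. The intervals of Cox8b, Cox7a1, Ndufaf4 and Cox6b2 reached furthest from no difference. The median SE was 0.0562 over members and 0.0792 over all genes tested. Strong signals varied less on these arrays, with a median range over the 7 mice of 0.334 over all genes tested and 0.229 over the 482 above log2 12. A mean above that level was seen in 48 members, whose median range was 0.117.

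The sign of the differences leaned to lower values under penicillin. The penicillin mean was below the control mean in 64 of 90 members, 71.1%, against 54.7% of all genes tested. Of the 482 tested genes above log2 12, a level that 48 of the members exceeded, 41.3% were lower. The median difference was -0.0321 over the members and -0.0142 over all genes tested, which is a change smaller than the SE of any single member. Complexes I, II and III held most of the lower values, and complex IV was divided. Most of this lean rested on control replicate 3, without which 51 of 90 were lower.

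**Figure D1:**
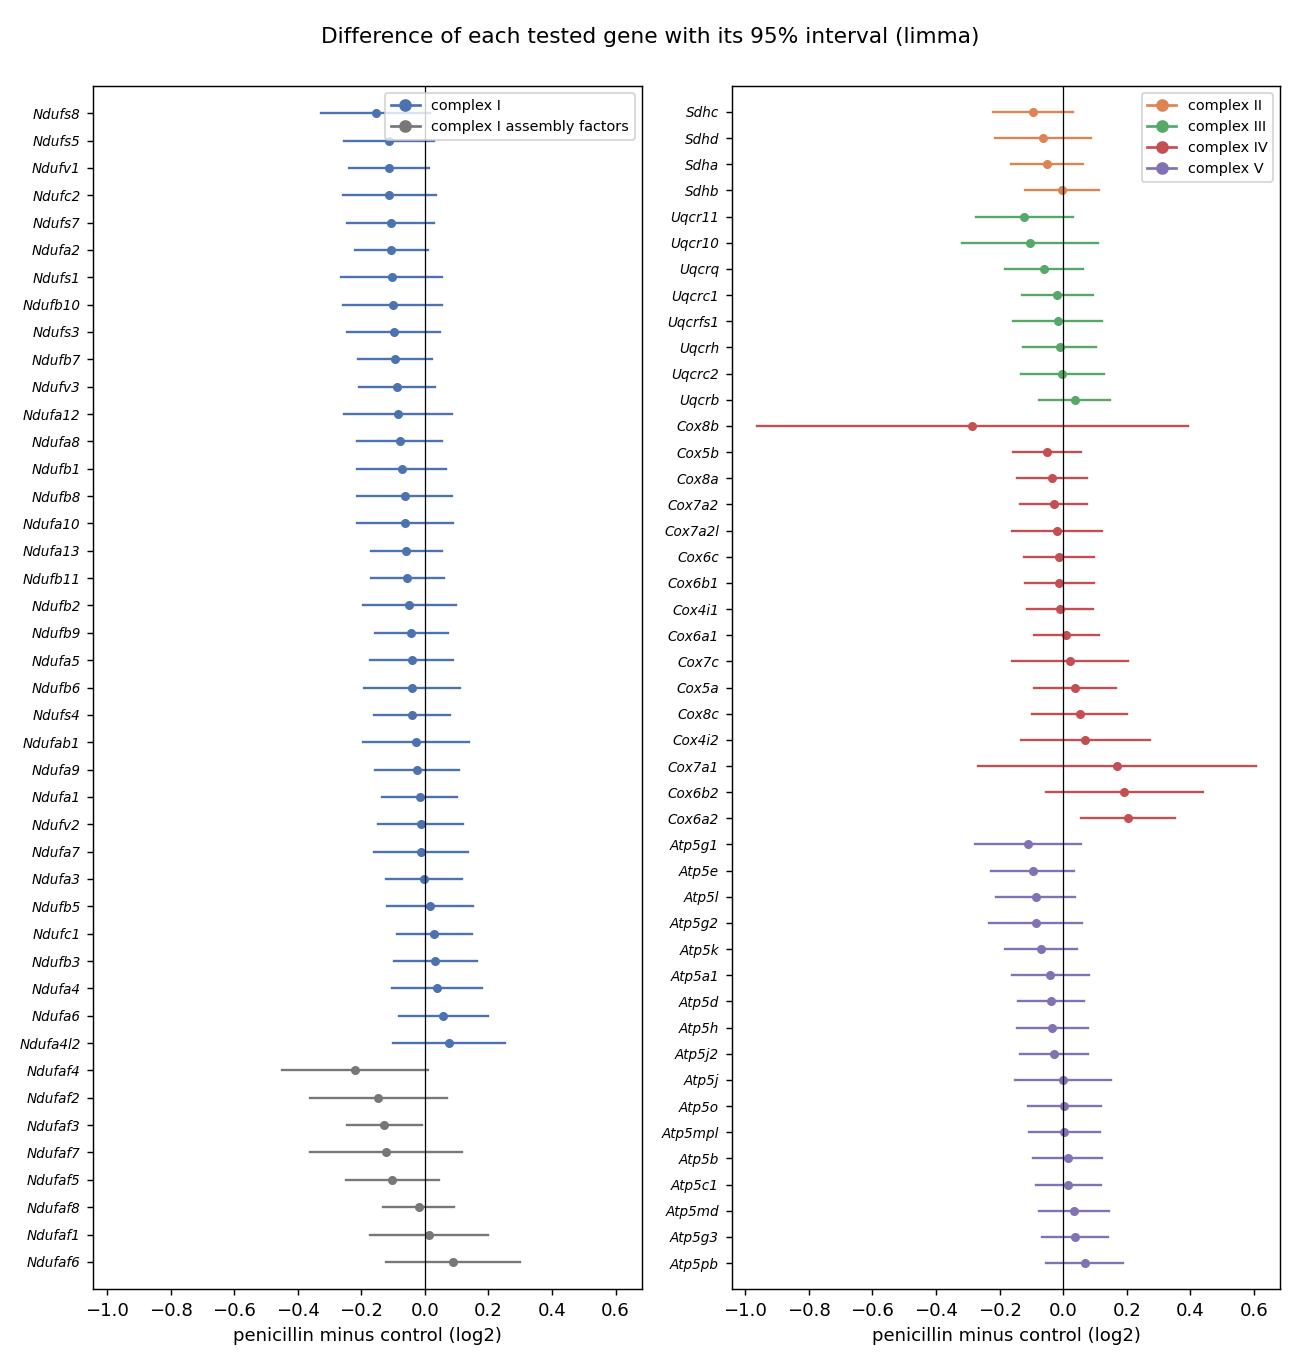
Each point is 1 oxidative phosphorylation gene, set by complex, with its penicillin minus control difference (log2) on the axis and the 95% confidence interval of the limma fit as a bar. Most points lie within 0.1 of no difference, and the tissue isoforms of complex IV reach both ends, from -0.29 for Cox8b to 0.20 for Cox6a2.

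Complex I, which takes electrons from NADH, had lower values under penicillin in 30 of its 36 genes, with a median difference of -0.0519 and a range from -0.154 to 0.0761. None of the 35 tested passed. The core subunits, which carry the flavin and the iron-sulphur clusters, were lower in 6 of 6, with a median of -0.106. Without control replicate 3, the highest mouse in all 6, they were lower in 5 of 6 with a median of -0.0697. The accessory subunits, which surround the core, were lower in 24 of 30, with a median of -0.0420.

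Ndufs8, an iron-sulphur subunit of the core, had the lowest difference of the complex. Its level was 12.62, 12.54 and 12.76 in the control mice and 12.50, 12.53, 12.36 and 12.54 in the penicillin mice. Control replicate 3 was the highest and penicillin replicate 3 the lowest, and control replicate 2 met the highest penicillin mouse. The difference was -0.15 (SE 0.0735, 95% interval -0.33 to 0.02, adjusted p = 0.501). The 6 probe sets of Ndufs8 gave differences from -0.168 to 0.017, so they were not of 1 sign.

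Ndufv1, which binds NADH and the flavin, was at 11.97, 11.90 and 12.04 in control mice and at 11.87, 11.85, 11.82 and 11.90 in penicillin mice, a difference of -0.11 (SE 0.0545, adjusted p = 0.505). Ndufs1, the largest iron-sulphur subunit, was at 10.84, 10.88 and 10.98 in control mice and at 10.67, 10.77, 10.86 and 10.88 in penicillin mice, a difference of -0.10 (SE 0.0682, adjusted p = 0.574). In both genes control replicate 3 was the highest of all mice. Penicillin replicate 4 met the lowest control in Ndufv1, and penicillin replicates 3 and 4 lay above the lowest control in Ndufs1. Ndufv2, another core subunit, differed by only -0.01.

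Among the accessory subunits, Ndufa2 and Ndufa13 were the 2 genes of the complex whose groups did not overlap. Ndufa2 was at 12.13, 12.08 and 12.15 in control mice and at 12.01, 12.06, 11.97 and 12.01 in penicillin mice, a difference of -0.11 (SE 0.0494, adjusted p = 0.495). Ndufa13 differed by -0.06 (adjusted p = 0.645). Over all members, 4 had every penicillin mouse below every control mouse (Ndufa2, Ndufa13, Ndufaf3 and Atp5d) against a background of 6.05%, and 1 had every penicillin mouse above (Cox6a2) against 4.29%. Both counts are shares below the background.

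Ndufa4 carries a complex I symbol, although the protein is now placed with complex IV, and Ndufa4l2 is its relative. Ndufa4 was at 12.74, 12.64 and 12.79 in control mice and at 12.78, 12.77, 12.68 and 12.83 in penicillin mice, a difference of 0.04 (SE 0.0604, adjusted p = 0.807). Ndufa4l2 differed by 0.08 (SE 0.0763, adjusted p = 0.696). Moved to complex IV, they left a median of -0.0567 in complex I, with 30 of 34 lower, and gave 0.0219 in complex IV, with 8 of 19 lower.

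The Ndufaf assembly factors, which help to build complex I and are no part of the finished enzyme, had a median difference of -0.112 and were lower in 6 of 8. Ndufaf3 was at 8.76, 8.76 and 8.81 in control mice and at 8.68, 8.63, 8.59 and 8.70 in penicillin mice. All the penicillin mice lay below the controls, by a small distance. The difference was -0.13 (SE 0.0506, 95% interval -0.25 to -0.01, unadjusted p = 0.0371), and it did not pass after adjustment (adjusted p = 0.442).

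Ndufaf4 had the lowest difference of the assembly factors. It was at 9.84, 9.66 and 9.87 in control mice and at 9.56, 9.38, 9.55 and 9.77 in penicillin mice, and penicillin replicate 4 lay above control replicate 2. The difference was -0.22 (SE 0.0987, adjusted p = 0.481), and its other probe set gave -0.15. Ndufaf5, an enzyme that modifies a core subunit, differed by -0.10 (adjusted p = 0.561).

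Complex II, succinate dehydrogenase, is also an enzyme of the tricarboxylic acid cycle. Its 4 genes were all lower in value, with a median of -0.0574, and none passed. With all probe sets of each gene averaged, 3 of the 4 were lower and the median was -0.0199. Sdhc, a membrane anchor, was at 10.63, 10.57 and 10.58 in control mice and at 10.46, 10.49, 10.46 and 10.59 in penicillin mice. Only penicillin replicate 4 reached the control values, and the difference was -0.09 (SE 0.0545, adjusted p = 0.544). Sdhd, the other anchor, differed by -0.06 (SE 0.0650, adjusted p = 0.698), and by -0.0195 without control replicate 3. The flavin subunit Sdha differed by -0.05 (SE 0.0483, adjusted p = 0.686) and the iron-sulphur subunit Sdhb by -0.0034 (SE 0.0501, adjusted p = 0.982).

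Complex III had 7 of 8 genes lower in value, with a median of only -0.0178. The core protein Uqcrc1 was at 12.52, 12.53 and 12.52 in control mice and at 12.45, 12.52, 12.51 and 12.55 in penicillin mice, so the groups overlapped, with a difference of -0.02 (adjusted p = 0.893). The Rieske iron-sulphur protein Uqcrfs1 differed by -0.02 (adjusted p = 0.916). The small subunits spread further. Uqcr11 was at 11.92, 11.86 and 12.05 in control mice and at 11.87, 11.85, 11.72 and 11.85 in penicillin mice, a difference of -0.12 (SE 0.0661, adjusted p = 0.527). Uqcr10 differed by -0.10 (SE 0.0918, adjusted p = 0.662), and that value was -0.0023 without control replicate 3. Uqcrq differed by -0.06 (adjusted p = 0.666), and Uqcrb, at 0.04, was the only gene of the complex with a higher value.

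Complex IV, cytochrome c oxidase, was divided between subunits found in most tissues and isoforms known from muscle, brown fat, lung or testis. The 10 genes of the first kind had a median difference of -0.0124 and 7 were lower. Of the 7 tissue isoforms, 1 was lower, Cox8b, and their median was 0.0788, the value of Cox7b2, which lay below the filter. Most of these isoforms gave weak signals, with mean levels from log2 3.39 to 9.89 and a median level of 6.21. Over all 17 genes 8 were lower and the median was 0.0100.

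Cox6a1, the subunit 6a of most tissues, was the steadiest of all members. It was at 14.31, 14.32 and 14.31 in control mice and at 14.32, 14.33, 14.30 and 14.34 in penicillin mice, a range of 0.037, and the difference was 0.01 (SE 0.0439, adjusted p = 0.935). Cox4i1 was at 13.66, 13.63 and 13.65 in control mice and at 13.64, 13.63, 13.61 and 13.67 in penicillin mice, a difference of -0.01 (SE 0.0452, adjusted p = 0.938). Both are near the top of the signal scale of the arrays. Cox5a differed by 0.04 (adjusted p = 0.792), Cox5b by -0.05 (adjusted p = 0.667), Cox6b1 by -0.01 (adjusted p = 0.929), Cox7a2 by -0.03 (adjusted p = 0.799) and Cox8a by -0.03 (adjusted p = 0.778). Cox7a2l differed by -0.02 (adjusted p = 0.915), and its other probe sets gave 0.028 and 0.027, so they were not of 1 sign.

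Cox6a2, the heart and skeletal muscle isoform, had the largest difference to the higher side among the members. It was at 5.98, 6.08 and 6.10 in control mice and at 6.30, 6.29, 6.31 and 6.14 in penicillin mice. The groups did not overlap, but penicillin replicate 4 lay close to the highest control. The control mean was 6.05 ± 0.062 (SD, n = 3) and the penicillin mean 6.26 ± 0.083 (SD, n = 4), a 1.15-fold difference, or 0.20 on the log2 scale (SE 0.0635, 95% interval 0.06 to 0.35, unadjusted p = 0.013). It did not pass after adjustment (adjusted p = 0.357), and a second probe set, at a mean of 3.52, gave 0.17. With array quality weights the difference was 0.26 and the adjusted p 0.0329, in a fit that called 774 genes rather than 13. The weights were 4.53, 0.46 and 0.25 in the control mice and 1.08, 2.12, 0.74 and 1.12 in the penicillin mice. The control mean of that fit thus rested mainly on replicate 1, the mouse with the lowest Cox6a2.

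Cox8b, the isoform of heart, skeletal muscle and brown fat, varied most among mice. It was at 6.14, 6.27 and 6.71 in control mice and at 5.94, 5.65, 5.86 and 6.89 in penicillin mice. Control replicate 3 and penicillin replicate 4 were high and the other penicillin mice low, so the groups overlapped. The difference was -0.29 (SE 0.292, 95% interval -0.96 to 0.39, adjusted p = 0.701), an interval too wide to bound the change closely. The value was -0.116 without control replicate 3 and -0.554 without penicillin replicate 4. Cox7a1, the other isoform of muscle and brown fat, was at 9.93, 9.99 and 9.47 in control mice and at 9.71, 9.87, 9.87 and 10.41 in penicillin mice. Penicillin replicate 4 was the highest and control replicate 3 the lowest, and the difference was 0.17 (SE 0.188, 95% interval -0.27 to 0.61, adjusted p = 0.727). That value was 0.0065 without control replicate 3 and 0.0207 without penicillin replicate 4. Cox8b and Cox7a1 thus shared the high value in penicillin replicate 4 but lay at opposite ends in control replicate 3.

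Fat and muscle genes were read in the same mice. Adipoq, the adipocyte hormone, was at 11.42, 11.54 and 12.81 in control mice and at 11.77, 11.07, 11.34 and 11.78 in penicillin mice, and Cidea, a gene of brown fat, at 5.17, 4.96 and 5.65 and at 5.37, 5.46, 5.32 and 5.61. Both were highest in control replicate 3 and next highest in penicillin replicate 4, the mice with the highest Cox8b. Over the 7 adipocyte markers on the array, the mean deviation from each gene's own mean ran from -0.370 to 0.599 in control mice and from -0.272 to 0.165 in penicillin mice. Ucp1, which defines active brown fat, stayed between 3.58 and 4.15, below the filter level of 4.59. Of 10 striated muscle markers, 4 passed the filter, and the mean deviation of the list stayed between -0.0708 and 0.112. The part of fat or muscle in the values of Cox8b, Cox7a1 and Cox6a2 was not tested.

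The remaining isoforms of complex IV were close to no difference or had wide intervals. Cox4i2, the lung isoform, differed by 0.07 (SE 0.0874, adjusted p = 0.757), and by -0.0388 without control replicate 1. Cox6b2 and Cox8c, known from testis, differed by 0.19 (SE 0.106, adjusted p = 0.530) and by 0.05 (adjusted p = 0.749).

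**Figure D2:**
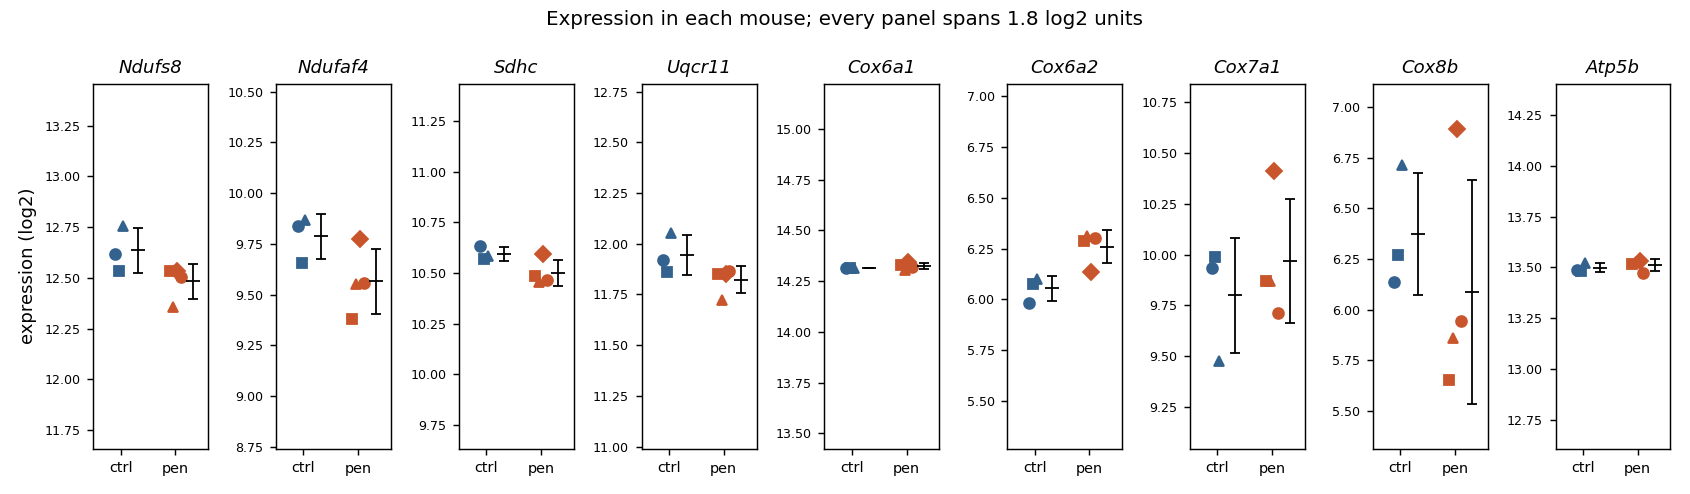
The panels show the log2 signal of selected oxidative phosphorylation genes in each of the 3 control and 4 penicillin mice, 1 point for each mouse, on axes that span the same number of log2 units. Cox6a1 lies almost flat across the mice, whereas Cox8b runs from 5.65 to 6.89 with control replicate 3 and penicillin replicate 4 at the top.

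Complex V, the ATP synthase, was lower in value in 9 of 17 genes, with a median of -0.0290 and a range from -0.110 to 0.0676. The catalytic head was lower in 3 of 5. Its beta subunit Atp5b, which holds the catalytic sites, was at 13.49, 13.48 and 13.52 in control mice and at 13.47, 13.52, 13.53 and 13.53 in penicillin mice, a difference of 0.01 (SE 0.0462, adjusted p = 0.915). Atp5d differed by -0.04 (adjusted p = 0.742) and Atp5e by -0.10 (SE 0.0563, adjusted p = 0.548). The peripheral stalk, which holds the head still, was lower in 1 of 4, with a median of 0.0017.

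The c ring, the rotor that turns with the protons, is encoded by Atp5g1, Atp5g2 and Atp5g3, which yield the same mature protein. Atp5g1 was at 12.11, 12.08 and 12.31 in control mice and at 12.08, 12.07, 11.97 and 12.11 in penicillin mice, a difference of -0.11 (SE 0.0717, adjusted p = 0.574). Its high control was replicate 3. Atp5g2 differed by -0.09 (SE 0.0628, adjusted p = 0.603), also with control replicate 3 the highest. Atp5g3 was at 13.68, 13.67 and 13.71 in control mice and at 13.73, 13.72, 13.71 and 13.74 in penicillin mice, a difference of 0.04 (SE 0.0445, adjusted p = 0.743). Atp5l, a small membrane subunit, differed by -0.09 (adjusted p = 0.562).

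Control replicate 3 stood out among the mice. It held the highest value of 52 of the 90 members, against 30.3% of all genes tested, and penicillin replicate 3 held the lowest value of 41, against 20.6%. In complex I control replicate 3 was the highest in 25 of 36 genes and in complex V in 12 of 17, but in complex IV in 3 of 17. Penicillin replicate 4 was the highest in 23 members, 8 of them in complex IV. The mean deviation over all members, from each gene's own mean, was -0.0001, -0.0215 and 0.0768 in control mice and -0.0251, -0.0190, -0.0519 and 0.0407 in penicillin mice. Penicillin replicate 4 thus lay above control replicates 1 and 2. Over complex I the same means were 0.0113, -0.0273 and 0.0981 in control mice and -0.0244, -0.0187, -0.0673 and 0.0283 in penicillin mice.

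**Figure D3:**
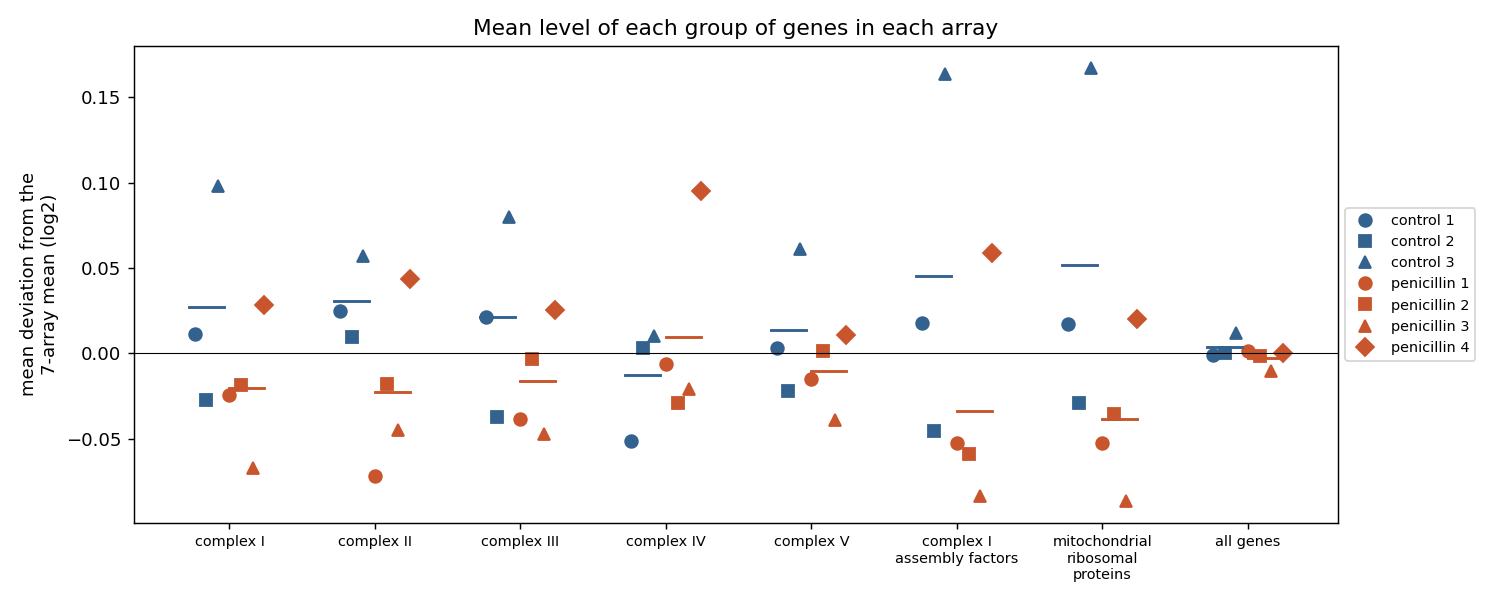
Each point is the mean deviation (log2) of the genes of 1 complex in 1 mouse, taken from each gene's own mean over the 7 mice, for control and penicillin mice. Control replicate 3 is the highest mouse in complexes I, II, III and V, and penicillin replicate 4 is the highest in complex IV, at 0.0948.

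Control replicate 3 also stood apart in its cell type markers. The mean deviation of the 6 colon markers was 1.49 there and between -0.573 and 0.268 in the other mice. Control replicate 3 was the highest mouse in only 2 of those 6, so the mean does not describe each of them. The mean deviation of the brush border markers of enterocytes was -0.883 in control replicate 3 and between -0.0799 and 0.557 in the others. Car1, a colon enzyme, was at 14.10 in control replicate 3, at 10.82 in penicillin replicate 1 and at 5.11 to 7.64 in the remaining mice. The crypt and proliferation markers were highest in control replicate 3, at 0.225, and lowest in penicillin replicate 3, at -0.170. In bulk tissue, fewer cells of a type and less RNA per cell cannot be told apart. Between the groups, the brush border markers were higher in value in 14 of 14, with a median difference of 0.341, and none passed. Without control replicate 3, 5 of the 14 were lower and the median was 0.128. The T cell and intraepithelial lymphocyte markers were lower in value in 9 of 9, with a median of -1.0, and 2 of them passed. The B and plasma cell markers were lower in 7 of 7 (median -0.404, none passed) and the macrophage and dendritic cell markers in 9 of 10 (median -0.294, 1 passed). The smooth muscle markers were lower in 10 of 10 (median -0.148), and none passed. Their count was 8 of 10 without penicillin replicate 4 (median -0.0603) and also without control replicate 1 (median -0.0651). The part of these differences in the oxidative phosphorylation values was not tested.

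Without control replicate 3 the lean to lower values was much smaller. Lower members made up 56.7%, against 51.7% of all genes tested, and the median went from -0.0321 to -0.0058. In complex I the count was 20 of 36 and the median -0.0243, and in complex III 4 of 8 and 0.0029. The assembly factors had a median of -0.0344 in place of -0.112. Single genes moved the same way: Ndufs8 went to -0.0943, Ndufaf5 to -0.0480, Uqcr11 to -0.0673, Atp5g1 to -0.0366 and Atp5g2 to -0.0258. With penicillin replicate 3 left out as well, 43 of 90 members were lower, against 50.4% of all genes tested, and the median of complex I was 0.00051. Leaving out control replicate 2 or penicillin replicate 4 moved the counts the other way. Without control replicate 2, 27 of 88 members had groups that did not overlap with penicillin lower, 30.7% against 15.1% of all genes tested, and without penicillin replicate 4 there were 19, 21.6% against 8.81%. None of these fits passed a member.

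**Figure D4:**
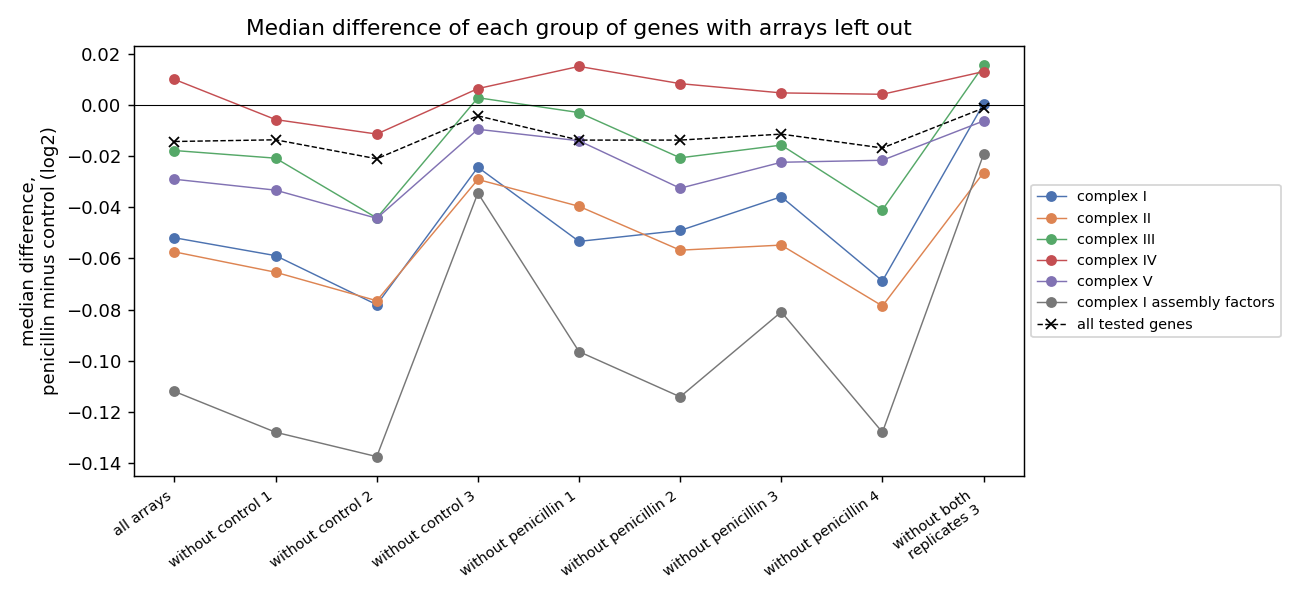
The median penicillin minus control difference (log2) of the genes of each complex is shown with all mice and with mice left out. The median of complex I moves from -0.0519 with all mice to -0.0243 without control replicate 3 and to 0.00051 without both mice numbered 3.

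The wider machinery of mitochondria was read from 11 further lists with 213 genes, of which 212 were tested. None passed. Without adjustment, 16 lower and 2 higher genes had a p under 0.05, against the backgrounds of 6.35% and 4.37%. The lists were chosen with earlier results of these data known.

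The mitochondrial ribosome makes the subunits that the mitochondrial genome encodes. Its proteins were lower in value in 71 of 75, 94.7% against 54.7% of all genes tested, with a median of -0.0900. With all probe sets of each gene averaged, 60 of 75 were lower, 80% against 52.1%, and the median was -0.0651. With 1 set per gene, lower values at an unadjusted p under 0.05 were found in 7, 9.33% against 6.35% of all genes tested. Mrpl22 differed by -0.19 (SE 0.056, adjusted p = 0.347) and Mrpl2 by -0.19 (SE 0.060, adjusted p = 0.353). Control replicate 3 held the highest value of 65 of the 75, and without it 52 were lower, with a median of -0.026. Import and structure genes were lower in 23 of 28, with a median of -0.0858, and without control replicate 3 in 17, with a median of -0.021. Of these, Timm8b, an import chaperone, differed by -0.15 (SE 0.060, adjusted p = 0.451) and Opa1, which fuses inner membranes, by -0.10 (SE 0.045).

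Assembly factors outside the symbol rule showed small differences too. Those of complex I were lower in 5 of 8, with Ecsit at -0.20 (SE 0.066, adjusted p = 0.398) and Foxred1 at -0.21 (SE 0.094, adjusted p = 0.481). Those of complex II were lower in 4 of 4, with a median of -0.0518. Cytochrome c1 and the assembly factors of complex III were lower in 6 of 7, with Bcs1l, which inserts the Rieske protein, at -0.14 (SE 0.071, adjusted p = 0.508). Those of complex IV were lower in 11 of 19, with the haem enzyme Cox10 at -0.17 (SE 0.071, adjusted p = 0.454) and Cox18 at -0.18 (SE 0.078, adjusted p = 0.458).

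Fuel supply and electron carriers gave mixed values. Genes of the tricarboxylic acid cycle and pyruvate dehydrogenase were lower in 15 of 21, with a median of -0.0450, and Pdhb was at -0.17 (SE 0.066, adjusted p = 0.433). Electron carriers and quinone synthesis were lower in 9 of 17, with Coq5 at -0.24 (SE 0.084, adjusted p = 0.410) and Coq8a at 0.22 (SE 0.086, adjusted p = 0.442). The partners of ATP synthase were lower in 1 of 7, with the adenine nucleotide carrier Slc25a5 at 0.10 (SE 0.058, adjusted p = 0.555) and the inhibitor Atpif1 at 0.08 (SE 0.051, adjusted p = 0.558). Regulators of mitochondrial biogenesis were lower in 8 of 18, with the coactivator Pprc1 at -0.25 (SE 0.065, adjusted p = 0.302) and Ppara, a receptor that activates fatty acid oxidation, at 0.20 (SE 0.069, adjusted p = 0.398). The coactivator Ppargc1a differed by -0.04 (SE 0.160). Of the 8 tested genes of uncoupling and mitochondrial redox control, Gsr, glutathione reductase, had the lowest difference, at -0.28 (SE 0.073, adjusted p = 0.289).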

How the data were processed

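The authors deposited log2 values per probe set, made with RMA and affy, per the submitters' processing notes. Their versions are not given in the sources read. RMA corrects background, equalises the arrays and summarises the probes of a set. The values lay between 2.50 and 14.7, and array medians between 5.43 and 5.45. Of 45101 probe sets, 34945 with 1 gene in the platform annotation were used, and 34741 of these matched RefSeq by gene ID. The members had 179 probe sets. A further 10 sets that name another gene as well were left out. Each gene was represented by its set with the highest mean, and 49 of the 90 member sets end in _a_at, _s_at or _x_at, endings of sets that can detect more than 1 transcript. Only genes whose mean exceeded the 25th percentile, log2 4.588, were tested.

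The 3 control and 4 penicillin mice, biological replicates per the labels, entered a limma 3.58.1 fit (R 4.3.3; lmFit, then eBayes with no trend, two-sided), adjusted over 13644 genes by Benjamini-Hochberg. The script was tested on simulated data. The number of arrays limits the precision. Members and lists were chosen with earlier results of these data known. By rule the text names the 3 tested genes of each complex with the largest moderated t in size, 8 fixed subunits, the tissue isoforms, and up to 2 genes of each other list described; Ndufa13, Atp5d, Ndufv2, Uqcrb, Cox7b2, Ndufb4, Ucp1, Car1 and Ppargc1a were named after their values were seen. Replicate numbers did not pair the mice. The NRF1 word was shortened by a letter after a first search with a longer one, which fewer promoters held. Plots used matplotlib 3.10.9 (Python 3.11.15).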

Additional observations from a re-analysis of the deposited data

Results flagged for a closer look

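Each of 38 named members was checked for a penicillin mouse that stood apart from the other 3 by Dixon's criterion, which chance meets in about 1 of 20 groups. It was met in 4. The level of Cox5a was 13.54 in penicillin replicate 4, above the other penicillin mice. That of Cox6a2 was 6.14 in the same mouse, below the others and nearest to the controls. Ndufaf5 was at 7.46 and Uqcr11 at 11.72 in penicillin replicate 3, both below the other penicillin mice.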

How the results depend on the processing

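No member passed at an adjusted p under 0.05 or under 0.1, and none passed under any alternative other than array quality weights, where 1 did, Cox6a2. The replicate number taken as a block passed 0 members and 0 of all genes and gave 2 lower members at an unadjusted p under 0.05, 2.27% against 3.73% of all genes tested in that fit. Same-numbered mice had correlations of deviations of -0.164, 0.0030 and -0.416, so the numbers were not treated as a pairing. Each share that follows is set against that of all genes tested in the same fit. The counts of lower members at an unadjusted p under 0.05 were 0 after quantile normalisation (against 5.09%), 2 with an intensity trend and robust prior (2.27% against 6.24%), 10 with weights (11.4% against 15.3%), and 0 without both mice numbered 3 (against 6.52%). Higher members numbered 0 with the 50th percentile filter (against 4.35%) and 7 with weights (7.95% against 11.3%). Members with groups apart and penicillin lower numbered 10 after quantile normalisation (11.4% against 5.34%), 9 with probe sets averaged (10.2% against 5.80%) and 1 of 68 tested without sets that can detect several transcripts (1.47% against 5.42%). Those with penicillin higher numbered 2 after quantile normalisation (2.27% against 6.98%), 0 with the 50th percentile filter (against 4.55%) and 11 without both mice numbered 3 (12.5% against 11.3%). The medians without both mice were 0.00051 for complex I and -0.019 for its assembly factors. With 1 mouse left out in turn, members past the threshold stayed at 0. Lower members at the unadjusted p ran from 0 to 6 (6 without control replicate 2, 6.82% against 8.82%). Higher members ran from 0 to 2 (2.27% against 5.78% without control replicate 2, and against 4.33% without control replicate 3). Groups apart with penicillin lower ran from 4 to 27 (27 without control replicate 2, 30.7% against 15.1%). Those with penicillin higher ran from 1 to 5 (5 without control replicate 3, 5.68% against 8.74%). The medians ran from -0.0495 to -0.0058 over all members, from -0.0781 to -0.0243 in complex I, from -0.0786 to -0.0291 in complex II, from -0.0441 to 0.0029 in complex III, from -0.0113 to 0.0151 in complex IV, from -0.0443 to -0.0095 in complex V and from -0.1375 to -0.0344 in the assembly factors. The causes were not tested.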

Other observations

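A further 89 probe sets belonged to the 51 members with several sets. Of the 80 above the filter level, 21 had the sign opposite to that of the set chosen for the gene, and the largest gap between them was 0.226 on the log2 scale. Among tested members 28.4% had values in at least 2 mice that were identical to the last deposited digit, against 43.4% of all genes tested.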
